A study of Mus musculus with 41 samples.

Results

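The genes described here are 43 named genes of the actin cytoskeleton, of the S100 and annexin families of calcium-binding proteins, and of the mesenchymal programme (galectins, matrix proteins, vimentin and the transcription factors of the epithelial-to-mesenchymal transition, EMT). They were chosen by name, but with earlier results of these data known, so the counts below describe the list and are no independent test of it. Of the 16967 genes with at least 1 CPM (reads scaled to the total of the library) in at least 3 libraries, these are 43, so every listed gene passed that filter, and 27 of them reached 1 CPM in each of the 41 libraries. RNA was measured by QuantSeq, which reads a tag near the 3′ end of polyadenylated transcripts, in E14 mouse embryonic stem cells (ES cells), an established line derived from a blastocyst. The cells were of 3 lines. WT cells carried Esrrb, the gene of a nuclear receptor that helps to hold naive pluripotency, and KO2 and KO3 are lines labelled as genetically depleted for Esrrb. Each was sampled untreated in 2iL (N2B27 medium with the GSK3 inhibitor CHIR99021, the MEK inhibitor PD0325901 and LIF, on gelatin), which holds cells in naive pluripotency. Each was also taken towards a formative state on fibronectin, with 1 day of plain N2B27 and then 1, 3 or 5 days in AloXR medium (activin A, the tankyrase inhibitor XAV and BMS439). Every line had 3 libraries of 2iL and 4 libraries of each AloXR time, apart from KO3, which had only 2 at day 3 and 2 at day 5. There was 1 WT line, and the labels do not say whether KO2 and KO3 are single clones or how the depletion was made. Nothing in them tells separate cultures from repeated libraries of 1 culture, so p-values measure the spread between libraries, which may be technical. Medium, coating, plating density and time changed together between 2iL and AloXR and cannot be told apart.

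As background, many contractile genes are controlled by serum response factor (SRF), which binds the CArG box. Its coactivators of the MRTF family are held by free actin monomers and released when actin polymerises, so that actin assembly feeds back on actin genes. Ccn1, Ccn2 and Ankrd1 are widely used readouts of YAP and TAZ, coactivators of the TEAD factors that enter the nucleus of spread or stretched cells. Most S100 proteins bind calcium as dimers. Several members of the family pair with annexins, which bind calcium and acidic membrane lipids, and S100A10 forms a complex with annexin A2. Vimentin, fibronectin, collagens and the SNAI and ZEB repressors mark mesenchymal cells.

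To show the DNA motifs of these regulators at members whose levels are given below, promoter windows from 250 bases before to 50 bases after the RefSeq start (build GRCm38.p6) were searched on both strands for the CArG box, for the TEAD motif GGAATG, and for the ESRRB core motif AAGGTCA. In the stretches printed below, no match of one motif overlapped a match of another. A window was found for 31 of the 43 members. A CArG box lay in the windows of 5 of these 31 (16.1%), namely Actg1, Anxa5, Cnn2, Myl9 and Vcl, against 1.81% of all 27025 genes with a window. The TEAD motif lay in those of 12 (38.7%), against 16.6% of all genes, and the ESRRB motif in 0 of 31, against 5.38% of all genes. The 5 stretches printed, all upstream of the start, were picked because their genes carry the contractile and YAP results below. They come from Cnn2 (chr10:79988504-79988583, plus strand), Myl9 (chr2:156775263-156775352, plus strand), Vcl (chr14:20929148-20929300, plus strand), Ccn1 (chr3:145650043-145650128, minus strand) and Cald1 (chr6:34598311-34598396, plus strand). Each runs 5′ to 3′ on the strand of its gene, with the matches in capitals (the CArG box in Cnn2, Myl9 and Vcl, and the TEAD motif in Vcl, Ccn1 and Cald1).
Cnn2: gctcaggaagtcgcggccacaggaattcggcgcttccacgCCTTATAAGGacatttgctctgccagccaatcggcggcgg
Myl9: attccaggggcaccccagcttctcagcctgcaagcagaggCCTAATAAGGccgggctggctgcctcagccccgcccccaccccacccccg
Vcl: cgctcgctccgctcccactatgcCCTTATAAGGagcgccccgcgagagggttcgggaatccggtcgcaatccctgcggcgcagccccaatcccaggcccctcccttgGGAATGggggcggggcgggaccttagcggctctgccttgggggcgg
Ccn1: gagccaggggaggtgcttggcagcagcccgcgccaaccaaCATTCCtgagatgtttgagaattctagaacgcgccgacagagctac
Cald1: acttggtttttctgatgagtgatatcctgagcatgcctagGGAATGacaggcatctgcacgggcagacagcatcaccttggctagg
A match describes the letters of the window and is no evidence of binding, and a window without one says nothing of the factor. None of the libraries measured binding.

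The 41 libraries held 3424064 to 5736053 reads. In 2iL, Esrrb stood at 434, 381 and 309 CPM in WT, 51.99, 55.2 and 56.7 CPM in KO2 and 103, 136 and 166 CPM in KO3, so both lines kept some of its transcript. At day 1 KO2 lay below WT, at 1.64 to 5.52 against 12.2 to 17.8 CPM, but KO3 lay above it, at 26.1 to 41.4 CPM. KO3 was also above WT at day 3, at 4.87 to 6.17 against 1.19 to 1.83 CPM, and KO2 stood at 1.16 to 3.2 CPM (0.74 ± 0.25 in log2(CPM + 1) over both lines, adjusted p = 0.0265 in limma). At days 1 and 3 the transcript level in KO3 thus goes against its label, and "depleted" below names the libraries as they are labelled, not a measured loss of Esrrb. A 3′ tag need not lie in the altered part of the gene, which the labels do not give. ES cell markers summed to 1000.9 to 3015 CPM in every library, but not evenly between the lines. At day 1 they summed to 1845 to 2023 CPM in WT, 1212 to 1589 in KO2 and 1479 to 1658 in KO3. At day 3 KO3, at 1207 to 1228 CPM, lay below WT at 1431 to 1636 CPM, and KO2, at 1130 to 1561 CPM, overlapped WT. At day 5 KO3, at 1251 to 1275 CPM, lay above WT at 1052 to 1226 CPM. Of the markers of other cell types, the fibroblast and feeder list (10 genes) was lower in the depleted lines at day 3, at 77.6 to 105 CPM against 133 to 140 CPM in WT. In this list Postn, Fap, Lum and Twist2 had group means of at most 1.31 CPM in every group. Its sum thus rested on the other genes listed, Thy1, Pdgfrb, Dcn, Prrx1, Loxl1 and Pdpn. The primitive and parietal endoderm list (10 genes, led by Sparc and Lamb1) summed at day 3 to 408 to 476 CPM in WT, 614 to 738 in KO2 and 984 to 1008 in KO3. The trophoblast list (8 genes) summed to 3.65 to 7.83, 23.8 to 73.2 and 87.8 to 91.7 CPM in the same groups. At day 3 the mesoderm list (8 genes) summed to at most 2.53 CPM in WT and 6.01 to 13.4 CPM in the depleted lines, the endothelium list (5 genes) to 2.23 to 3.44 and 8.13 to 12.95 CPM, and the blood list (5 genes) to 4.03 to 6.51 and 8.02 to 15.1 CPM, with Msgn1, Tyrobp and Hbb-bs at 0 in all libraries of that day. Mitochondrial transcripts took 2.97 to 3.20% of reads in WT, 3.39 to 4.41% in KO2 and 4.02 to 4.63% in KO3 at day 1, and 2.21 to 2.57%, 2.66 to 2.96% and 3.31 to 3.43% at day 5, while the lines overlapped in 2iL and at day 3. These lists and shares differed between the lines, but not all at the times or in the direction of the member genes. Their part in the results below was not tested. Summed levels of the smooth muscle list (8 genes, of which Acta2 and Cnn1 are members) were 83.9 to 140 CPM in WT and 137 to 216 CPM in the depleted lines at day 3. In that list Myocd and Myh11 had group means of at most 1.96 CPM, so its sum rested on the other genes. In such bulk samples, fewer cells of a type and less RNA per cell cannot be told apart.

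Most of the S100, annexin, YAP target and matrix genes were higher in the lines labelled as depleted after 1 and 3 days of AloXR. Of the 27 members called higher at day 3, all but Snai2 differed less at day 5 (96.3%), as did 83.3% of all 1830 genes called higher at day 3, which were chosen for their difference at that time. In 2iL, 10 of the 43 members were called higher, against 8.11% of all genes, and 2 were called lower, against 7.60% (limma on log2(CPM + 1), mean of KO2 and KO3 against WT, adjusted p under 0.05, at least 1.5-fold, both lines in the same direction). At day 1, 21 were higher (background 6.31%) and 1 was lower (5.50%). The largest count stood at day 3, with 27 higher (10.8%) and 1 lower (6.49%). At day 5, 9 were higher (8.89%) and 2 lower (11.7%), so that the count of higher members came back towards its 2iL level. The median difference of the members, in log2(CPM + 1), was 0.36 in 2iL, 0.67 at day 1, 0.88 at day 3 and 0.30 at day 5, beside 0.04, 0.02, 0.03 and 0.00 for all genes. Every library of both depleted lines lay above every WT library for 9, 14, 24 and 6 members at these times, against 5.57%, 4.68%, 8.42% and 6.98% of all genes. With quantile normalization the background at day 3 was split into 1418 higher and 1381 lower genes, where the main values gave 1830 and 1101, and 26 members were still called higher and 2 lower.

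**Figure D1:**
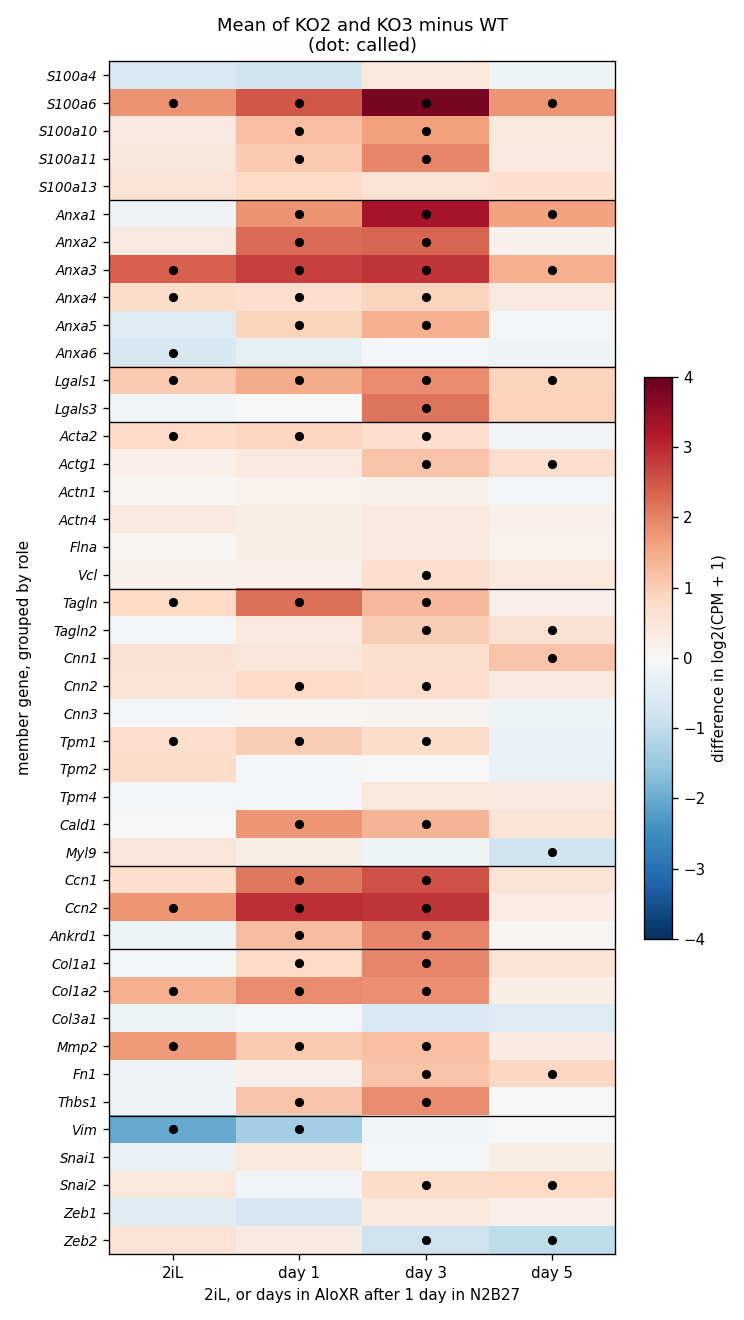
Difference between the mean of KO2 and KO3 and WT in log2(CPM + 1) for the 43 members (rows, grouped by role, lines between groups) at 4 times (columns), on a colour scale from -4 to 4, with a dot where the difference was called. Red and dots are densest at day 3, with 27 members called higher, and thin out at day 5, with 9.

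S100 proteins. Of the 5 S100 members, S100a6, S100a10 and S100a11 were higher in the depleted lines at days 1 and 3, and S100a6 at all 4 times. S100a6 encodes calcyclin, a calcium sensor often raised in growing and mesenchymal cells. At day 3 it stood at 10.6, 13.5, 19.2 and 18.3 CPM in WT, 222, 198, 178 and 145 CPM in KO2 and 279 and 264 CPM in KO3. All 6 depleted libraries lay far above the WT libraries, and KO3 lay above KO2. The difference was 3.81 ± 0.26 in log2(CPM + 1) (± SE of the limma fit, adjusted p = 5.88e-13), larger than at the other times, where it was 1.80 ± 0.28 in 2iL, 2.47 ± 0.24 at day 1 and 1.77 ± 0.26 at day 5. In WT, S100a6 stayed at 9.1 to 18.97 CPM at day 1 and reached 32.9 to 55.7 CPM at day 5.

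S100a10, the partner of annexin A2, overlapped between the lines in 2iL, at 48.9, 60.6 and 97.4 CPM in WT and 56.95 to 134 CPM in the 6 depleted libraries. At day 3 it stood at 44.9, 71.4, 64.04 and 58.8 CPM in WT, 188, 155, 179 and 134 CPM in KO2 and 213 and 213 CPM in KO3, with no overlap (1.64 ± 0.18, adjusted p = 1.13e-08). By day 5, WT had risen to 144, 166, 133 and 120.5 CPM, and the depleted lines stood at 171 to 246 CPM. All depleted libraries were still above all WT libraries, but the difference of 0.44 ± 0.18 was not called (adjusted p = 0.0674). S100a11, another annexin partner, was also higher at day 3, at a lower level. It stood at 4.67, 11.6, 4.98 and 6.51 CPM in WT against 20.6 to 37.2 CPM in the depleted libraries (1.95 ± 0.23, adjusted p = 4.25e-09). Unlike S100a10, it fell in WT from 9.78 to 23.8 CPM in 2iL to 3.71 to 6.61 CPM at day 1. At day 5 the first KO3 library, at 20.8 CPM, lay within the WT range of 15.0 to 23.6 CPM.

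The remaining S100 members were not called at any time. S100a4, which binds non-muscle myosin and is known from motile cells, never exceeded 4.80 CPM. S100a13, which takes part in the release of growth factors without a signal peptide, spread widely in 2iL, at 88.5, 58.8 and 20.8 CPM in WT, 209, 92.7 and 13.8 CPM in KO2 and 229.6, 119.6 and 15.3 CPM in KO3. The third 2iL library was the lowest in each line. Without the third library of each line, S100a13 was called higher in the depleted lines in 2iL (1.06, adjusted p = 0.0145), where the difference over all libraries was 0.55 ± 0.60 (adjusted p = 0.586). In AloXR it lay at 1.12 to 10.2 CPM in all libraries.

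Annexins. All annexin members but Anxa6 were higher in the depleted lines at days 1 and 3. Anxa2, which links membranes to actin and pairs with S100A10, fell in WT on leaving 2iL and rose again. Its WT libraries stood at 23.2, 17.4 and 29.6 CPM in 2iL, 5.6, 4.49, 4.13 and 4.26 CPM at day 1, 13.8, 15.3, 12.1 and 7.96 CPM at day 3 and 58.9, 55.1, 49.1 and 53.9 CPM at day 5. In KO2 the values were 21.03, 25.6 and 17.99 CPM, then 24.9, 24.6, 16.8 and 16.9 CPM, then 45.2, 62.1, 31.1 and 38.98 CPM, then 61.02, 44.7, 30.3 and 39.5 CPM, in the same order. In KO3 they were 28.5, 55.9 and 46.02 CPM, 37.2, 32.1, 28.1 and 35.9 CPM, 88.01 and 100.5 CPM and 87.9 and 86.1 CPM. The day 1 low point of WT was thus absent in KO2 and shallower in KO3. At day 5 KO2 overlapped WT and KO3 lay above it. The difference was 0.37 ± 0.20 in 2iL (adjusted p = 0.197), 2.27 ± 0.17 at day 1 (7.02e-14), 2.32 ± 0.19 at day 3 (3.42e-13) and 0.17 ± 0.19 at day 5 (0.533).

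Anxa3 differed already in 2iL, at 1.14, 1.3 and 1.5 CPM in WT, 13.4, 12.6 and 9.21 CPM in KO2 and 7.79, 15.4 and 10.1 CPM in KO3. It stayed above WT in every depleted library at all 4 times, with 2.40 ± 0.21 in 2iL (adjusted p = 2.21e-12), 2.72 ± 0.18 at day 1, 2.86 ± 0.20 at day 3 and 1.44 ± 0.20 at day 5 (adjusted p = 1.94e-07). WT itself rose to 12.4, 13.5, 19.6 and 23.1 CPM at day 5. Anxa1, an inhibitor of phospholipase A2 and of inflammation, was near the detection limit in WT at day 3, at 1.42, 0.22, 0.24 and 0.9 CPM, and stood at 14.4, 8.83, 8.34 and 6.4 CPM in KO2 and 23.2 and 24.1 CPM in KO3. These groups did not overlap (3.28 ± 0.29, adjusted p = 2.55e-12). At day 5 it was still called over both lines (1.62 ± 0.29), but mainly through KO3, at 21.01 and 14.7 CPM. KO2, at 1.14, 4.26, 4.45 and 4.07 CPM, overlapped WT at 0.87 to 3.49 CPM. In 2iL the 2 lines went opposite ways from WT, which stood at 2.28 to 2.79 CPM, with 3.77 to 5.28 CPM in KO2 and 0.4 to 1.11 CPM in KO3.

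Anxa5, the phosphatidylserine binder used to stain dying cells, was higher at day 3, at 6.7, 8.08, 7.12 and 7.6 CPM in WT, 26.3, 27.2, 13.1 and 17.3 CPM in KO2 and 20.4 and 26.03 CPM in KO3 (1.43 ± 0.31, adjusted p = 0.000724). The groups did not overlap. Its call at day 1 (0.90 ± 0.29) ended without the first, the second or the fourth WT library or the second KO2 library of that day (adjusted p = 0.0501 to 0.0954). Anxa4 rested mainly on KO3. Its call at day 1 (0.67 ± 0.14) was 0.56 (adjusted p = 0.00253) less the median of its neighbours, under the fold set for a call. At day 3 it lay at 13.5 to 16.1 CPM in WT, 26.5, 29.02, 14.4 and 14.9 CPM in KO2 and 38.9 and 37.2 CPM in KO3, so that KO2 overlapped WT and KO3 did not. The difference was 0.44 in KO2 and 1.32 in KO3. Anxa6 was lower in 2iL, at 25.03, 38.3 and 29.4 CPM in WT and 14.6 to 25.4 CPM in the depleted lines (-0.64 ± 0.17, adjusted p = 0.00377), a call that ended without the second WT library (-0.48, adjusted p = 0.0788) and when only the libraries compared were fitted (adjusted p = 0.0521).

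Galectins. Lgals1, a secreted galactoside-binding protein of mesenchymal cells, was higher in the depleted lines at all 4 times. Its day 3 values were 54.2, 56.1, 59.8 and 48.7 CPM in WT, 188, 202, 170.3 and 184 CPM in KO2 and 225 and 227 CPM in KO3. The groups were far apart, by 1.89 ± 0.13 (adjusted p = 8.44e-16), and the difference was 1.04 ± 0.14 in 2iL, 1.47 ± 0.12 at day 1 and 0.90 ± 0.13 at day 5. Lgals3 differed mainly in KO3, with 1.01, 3.27, 2.37 and 6.69 CPM in WT, 8.91, 9.84, 7.29 and 4.07 CPM in KO2 and 30.2 and 37.7 CPM in KO3 at day 3 (2.13 ± 0.32, adjusted p = 2.87e-06). KO2 overlapped WT and KO3 lay above both. Genes near Lgals3 on chromosome 14 (37 expressed genes within 5 Mb, GRCm38) had a median difference of -0.93 in 2iL, -0.94 at day 1, -0.85 at day 3 and -0.73 at day 5, so Lgals3 stood higher against its neighbours than against WT. Less that median it was also called higher at day 1 (0.97, adjusted p = 0.019) and day 5 (1.67, adjusted p = 0.000125).

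**Figure D2:**
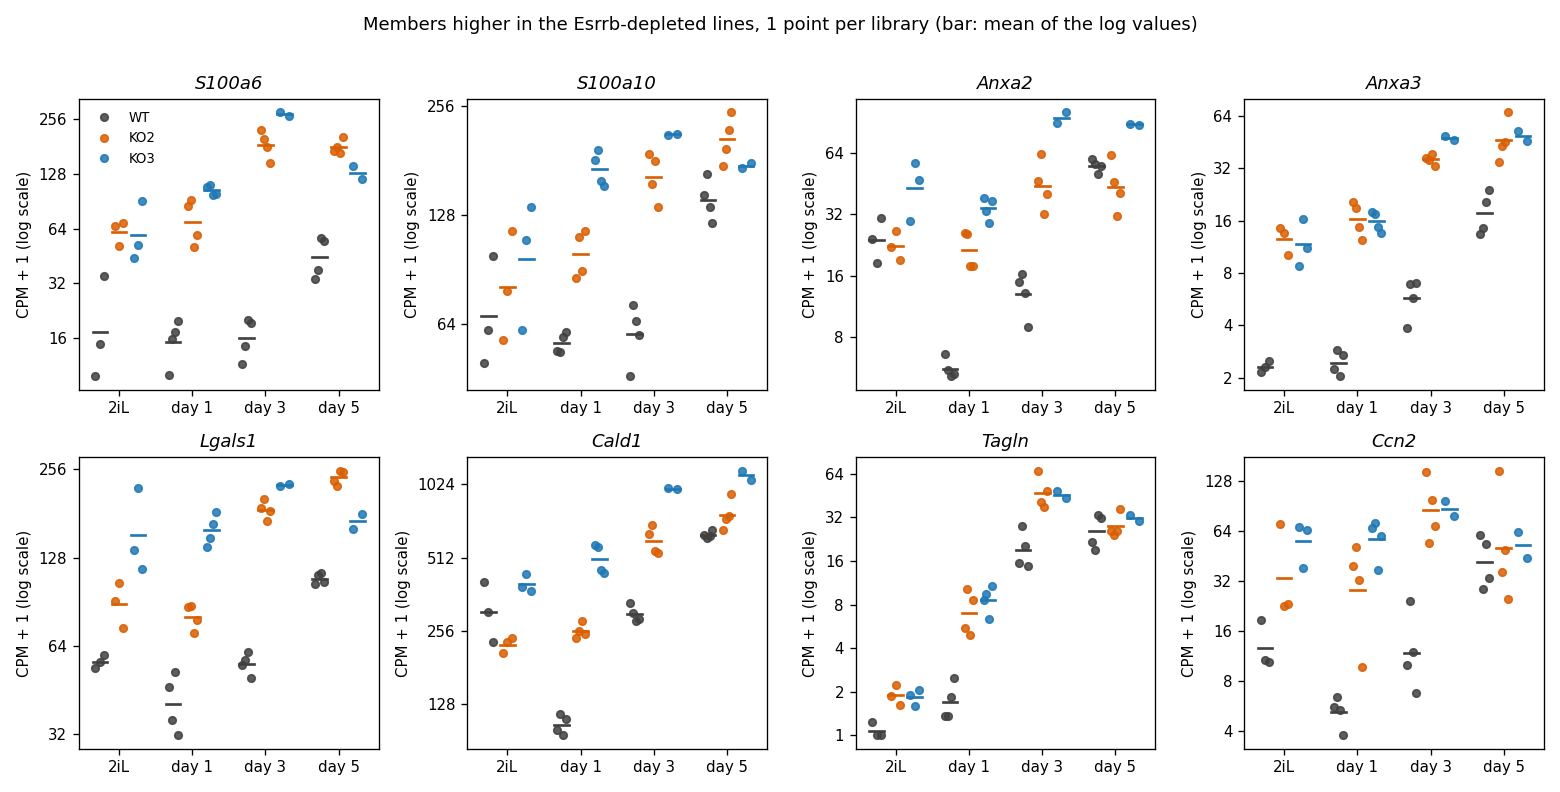
CPM + 1 on a log scale (vertical axis) in 2iL and after 1, 3 and 5 days of AloXR (horizontal axis) for 8 members, 1 point per library, with WT in grey, KO2 in orange, KO3 in blue and bars at the mean of the log values. At day 3 every depleted library of these 8 genes lies above every WT library, and at day 5 the lines overlap for Anxa2, Tagln and Ccn2.

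YAP and SRF targets. The 3 genes in this group, Ccn1 and Ccn2 (matricellular proteins, formerly CYR61 and CTGF) and Ankrd1 (a nuclear and sarcomeric ankyrin-repeat protein), were all called higher at days 1 and 3 and none at day 5. Ccn2 stood at 4.55, 5.42, 4.33 and 2.77 CPM in WT, 38.2, 49.9, 31.2 and 8.72 CPM in KO2 and 65.95, 70.4, 35.99 and 58.5 CPM in KO3 at day 1. At day 3 the values were 8.93, 23.1, 10.9 and 5.79 CPM in WT, 143, 52.7, 97.5 and 67.7 CPM in KO2 and 95.6 and 77.1 CPM in KO3. All depleted libraries lay above all WT libraries at both times, with differences of 2.95 ± 0.43 (adjusted p = 5.83e-06) and 2.87 ± 0.46 (adjusted p = 2.15e-05), although libraries of 1 group differed severalfold. At day 5 WT had risen to 59.1, 27.5, 52.5 and 32.3 CPM, and KO2 (146, 35.01, 47.9 and 23.7 CPM) and KO3 (61.8 and 42.8 CPM) overlapped it (0.30 ± 0.46, adjusted p = 0.671).

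Ccn1 was as variable, at 8.73, 19.6, 8.78 and 5.61 CPM in WT, 84.3, 17.9, 69.8 and 23.7 CPM in KO2 and 110.4 and 77.4 CPM in KO3 at day 3. A single KO2 library lay within the WT range, and the difference was 2.54 ± 0.46 (adjusted p = 9.48e-05). Ankrd1 stayed at or under 1.56 CPM in WT until day 3, with 0.41, 0.44, 0.47 and 0 CPM at day 3, where a count of 0 allows up to 3 reads (0.523 to 0.876 CPM, counting error only). In the depleted lines it stood at 5.25, 7.32, 2.08 and 3.1 CPM in KO2 and 3.5 and 4.62 CPM in KO3 (1.94 ± 0.30, adjusted p = 2.12e-06). At day 1 its rise rested on KO2 (1.99, against 0.45 in KO3). WT reached 3.49, 2.97, 6.82 and 5.24 CPM at day 5, within the range of the depleted lines.

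Contractile regulators. Of the 10 members of this group, 5 were higher at day 3 (Tagln, Tagln2, Cnn2, Tpm1 and Cald1). Tagln encodes transgelin (SM22), an actin-bundling protein of smooth muscle and a textbook SRF target. It appeared earlier in the depleted lines. At day 1 it stood at 0.35, 0.37, 0.83 and 1.49 CPM in WT, 4.52, 9.2, 3.96 and 7.63 CPM in KO2 and 7.62, 8.53, 5.36 and 9.71 CPM in KO3, without overlap (2.19 ± 0.21, adjusted p = 2.05e-11). By day 3 it had reached 14.4, 27.1, 19.2 and 13.8 CPM in WT, 66.2, 39.9, 36.5 and 47.9 CPM in KO2 and 47.7 and 42.3 CPM in KO3 (1.30 ± 0.22, adjusted p = 1.44e-05). At day 5 the lines overlapped, at 18.03 to 32.3 CPM in WT and 23.2 to 35.4 CPM in the depleted lines. Tagln overlaps Pcsk7 (median 5.61 CPM) on the other strand, and the counting strand is not given in the sources used here, so reads of the pair cannot be told apart at the low levels.

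Cald1 encodes caldesmon, which binds actin and myosin and restrains contraction. In WT it fell from 404, 305 and 228 CPM in 2iL to 98.9, 115, 93.9 and 110.0 CPM at day 1 and then rose to 331, 302, 279 and 285 CPM at day 3 and 633, 617, 627 and 661 CPM at day 5. KO2 did not fall, with 206, 228 and 237 CPM in 2iL and 237, 255, 281 and 246 CPM at day 1, and KO3 stood at 387, 437 and 371 and then 573, 563, 452 and 442 CPM. All depleted libraries exceeded all WT libraries at days 1, 3 and 5. The difference was -0.03 ± 0.12 in 2iL (adjusted p = 0.905), 1.77 ± 0.10 at day 1 (3.26e-18), 1.36 ± 0.11 at day 3 (1.62e-13) and 0.54 ± 0.11 at day 5 (0.000127), the last under the fold set for a call.

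Tpm1, a tropomyosin that lies along actin filaments, stood at 297, 297, 241 and 259.8 CPM in WT, 542, 542, 553 and 646 CPM in KO2 and 491, 514, 535 and 491 CPM in KO3 at day 1 (0.98 ± 0.13, adjusted p = 1.65e-07). By day 5 the order had turned, with 1326, 1416, 1319.8 and 1211 CPM in WT, 1160.3, 1049, 1063 and 1287 CPM in KO2 and 1099 and 1152 CPM in KO3, and 5 of 6 depleted libraries lay below every WT library. The day 5 difference was -0.22 ± 0.14 and was not called (adjusted p = 0.226). Cnn2, a calponin of non-muscle cells with a CArG box in its window above, was higher at days 1 (0.76 ± 0.15) and 3 (0.70 ± 0.16, adjusted p = 0.0011), where it lay at 73.05 to 84.7 CPM in WT and 94.2 to 152 CPM in the depleted lines. Tagln2, the transgelin of non-muscle cells, was higher at day 3 (110.2 to 124 CPM in WT, 149 to 244 in KO2, 274 to 287 in KO3).

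Cnn1 and Myl9, markers of differentiated smooth muscle, went opposite ways at day 5. Cnn1, smooth muscle calponin, stood at 17.9, 15.3, 39.1 and 31.2 CPM in WT, 28.2, 39.5, 77.3 and 91.8 CPM in KO2 and 59.4 and 51.9 CPM in KO3 (1.14 ± 0.25, adjusted p = 0.000431), with 1 depleted library within the WT range. Myl9, the regulatory light chain of myosin, stood at 29.9, 33.1, 47.3 and 38.8 CPM in WT, 17.3, 22.2, 23.6 and 30.5 CPM in KO2 and 15.9 and 22.6 CPM in KO3. All depleted libraries but 1 lay below all WT libraries, and the difference was -0.78 ± 0.17 (adjusted p = 0.000371), or -0.58 less the median of its neighbours, which is under the fold set for a call. Cnn3, Tpm2 and Tpm4 were not called at any time over both lines. Tpm4 differed between the lines instead, as given below.

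Actins and actin linkers. Acta2 encodes smooth muscle alpha-actin. It was called higher in 2iL, day 1 and day 3, but KO3 alone was not called at any of them (0.09, 0.49 and 0.34, against 1.46, 1.22 and 0.99 in KO2). Its day 3 values were 55.6, 85.3, 36.5 and 29.5 CPM in WT, 121, 101, 96.7 and 70.6 CPM in KO2 and 61.3 and 59.9 CPM in KO3, where KO3 lay within the WT range. The day 3 call of both lines (0.67 ± 0.21, adjusted p = 0.0138) ended without the third (adjusted p = 0.0784) or the fourth (0.137) WT library, in edgeR on recovered reads (0.55, under the fold set for a call) and when only the compared libraries were fitted (adjusted p = 0.141). Vcl, vinculin of focal adhesions, was higher at day 3, at 95.2, 96.3, 107 and 104 CPM in WT, 189.6, 175, 167 and 145 CPM in KO2 and 152 and 149.6 CPM in KO3, without overlap (0.66 ± 0.13, adjusted p = 0.00012). It overlaps Ap3m1 (median 36.65 CPM) on the other strand, and the counting strand is not given in the sources used here.

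The crosslinkers Actn1, Actn4 and Flna (alpha-actinins and filamin A) were abundant and were not called at any time. The differences at day 3 were 0.16 ± 0.13, 0.35 ± 0.12 and 0.35 ± 0.10 in log2(CPM + 1), all under the fold set for a call, although all 6 depleted libraries of Flna (196 to 242 CPM) lay above WT (169 to 181 CPM). Actg1, cytoplasmic gamma-actin, was listed at only 0 to 6.99 CPM, although cells make it in bulk. Its reads may be shared with near-identical copies, so its calls at day 3 (1.13 ± 0.27) and day 5 (0.71 ± 0.27) are uncertain, and the latter ended under edgeR (adjusted p = 0.0586) and DESeq2 (0.0525) and without any of 6 libraries (0.0633 to 0.188).

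Matrix genes. Col1a1 and Col1a2, the chains of type I collagen, were higher at days 1 and 3, and mainly in KO2. At day 3 Col1a2 stood at 4.06, 4.8, 4.27 and 4.88 CPM in WT, 47.97, 58.5, 25.4 and 28.1 CPM in KO2 and 9.66 and 8.03 CPM in KO3. Col1a1 stood at 0.81, 0.65, 1.19 and 0.72 CPM in WT, 23.1, 21.2, 10.8 and 6.79 CPM in KO2 and 2.67 and 2.19 CPM in KO3. For both genes the depleted lines lay above WT without overlap, with KO2 well above KO3. The differences were 1.83 ± 0.30 (adjusted p = 1.07e-05) and 1.96 ± 0.30 (adjusted p = 2.15e-06), of which KO3 alone had 0.84 and 0.90, not called. The day 1 call of Col1a1 (0.77 ± 0.28) ended under edgeR (adjusted p = 0.0502), less the median of its neighbours (0.0631) and without any of 7 libraries (0.059 to 0.13). Col3a1, the type III collagen, stayed at or below 2.84 CPM and was not called.

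Thbs1, the matricellular protein thrombospondin, stood at 2.84, 3.49, 2.61 and 1.45 CPM in WT, 14.2, 10.1, 8.75 and 5.24 CPM in KO2 and 17.1 and 14.3 CPM in KO3 at day 3 (1.88 ± 0.25, adjusted p = 1.03e-07). At day 5 WT reached 19.6, 19.6, 17.5 and 14.6 CPM and the lines split around it, with 9.79, 6.15, 11.3 and 14 CPM in KO2, all lower, and 33.3 and 27.9 CPM in KO3, both higher. Mmp2, a secreted gelatinase, was higher in 2iL (1.71 ± 0.28), day 1 (1.05 ± 0.24) and day 3 (1.19 ± 0.26, adjusted p = 0.000649), when it lay at 5.45 to 10.2 CPM in WT and 12.8 to 23.97 CPM in the depleted lines. Fn1, fibronectin, was higher at days 3 and 5. Its values at day 3 were 22.5, 20.3, 27.99 and 25.9 CPM in WT, 51.4, 47.7, 47.9 and 35.9 CPM in KO2 and 63.3 and 63.98 CPM in KO3 (1.13 ± 0.24, adjusted p = 0.000471), without overlap. The day 5 call of Fn1 rested mainly on KO3, at 102 and 87.9 CPM. KO2, at 43.9 to 74.8 CPM, overlapped WT at 33.7 to 44.6 CPM.

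Vimentin and EMT factors. Of the 5 members of this group, Snai2 was called higher and Zeb2 lower at day 3. Vim, the intermediate filament of mesenchymal cells, was lower in the depleted lines in 2iL and at day 1. In 2iL it stood at 139, 211 and 508 CPM in WT, 64.8, 79.1 and 109 CPM in KO2 and 17.4, 43.9 and 114 CPM in KO3, with the third library highest in each line, as it was lowest in each line for S100a13. At day 1 it stood at 146, 151, 182 and 177 CPM in WT, 51.2, 54.7, 43.1 and 38.99 CPM in KO2 and 73.6, 79.2, 99.8 and 86.7 CPM in KO3. All depleted libraries lay below all WT libraries at both times, by -2.004 ± 0.39 (adjusted p = 0.000243) and -1.36 ± 0.33 (adjusted p = 0.00344). At day 3 the lines overlapped, at 69.2 to 85.03 CPM in WT and 62.8 to 74.9 CPM in the depleted lines (-0.12 ± 0.36, adjusted p = 0.85). At day 5 WT lay at 148.4 to 177 CPM. The KO2 libraries spread to both sides of it, at 41.9, 85.6, 148.3 and 187 CPM, and KO3 stood above it, at 253 and 265 CPM.

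Zeb2, a repressor of E-cadherin, was lower at day 5, at 6.11, 5.55, 7.05 and 5.02 CPM in WT, 3.64, 2.6, 3.12 and 1.77 CPM in KO2 and 2.66 and 1.59 CPM in KO3, without overlap (-1.03 ± 0.26, adjusted p = 0.00161). Its call at day 3 (-0.83 ± 0.26) ended without the first or second WT library or the first KO3 library of that day (adjusted p = 0.0548 to 0.0756). Snai2 never exceeded 4.59 CPM. It was called higher at day 3 (0.74 ± 0.25, adjusted p = 0.0246), a call that ended under edgeR (adjusted p = 0.0639) and DESeq2 (0.0647) and without any of 4 libraries (0.0568 to 0.115). At day 5 (0.80 ± 0.25) the call ended without the first KO3 library (adjusted p = 0.0699), and KO3 (4.59 and 3.17 CPM) but not KO2 (0.91, 0.71, 1.11 and 2.66 CPM) was far from WT (0.87, 1.19, 0.68 and 0.87 CPM). Snai1 and Zeb1 were not called at any time. E-cadherin itself, Cdh1, was not called either (0.44 ± 0.08 at day 3). Even so, all depleted libraries of Cdh1 lay above all WT libraries at day 3 (840 to 1217 against 695 to 821 CPM). The same held at day 5 (823 to 1244 against 657 to 739 CPM). In 2iL KO2 (486 to 554 CPM) lay below WT (602 to 732 CPM) and KO3 (795 to 902 CPM) above it. The mesenchymal N-cadherin, Cdh2, was called higher in 2iL (0.90 ± 0.30) and at day 5 (1.43 ± 0.28) but not at day 1 (0.06 ± 0.26) or day 3 (-0.01 ± 0.28). In 2iL its difference rested on KO2, at 3.21, 4.67 and 5.44 CPM. KO3, at 0.67, 1.4 and 2.09 CPM, lay within the WT range of 0 to 2.15 CPM.

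**Figure D3:**
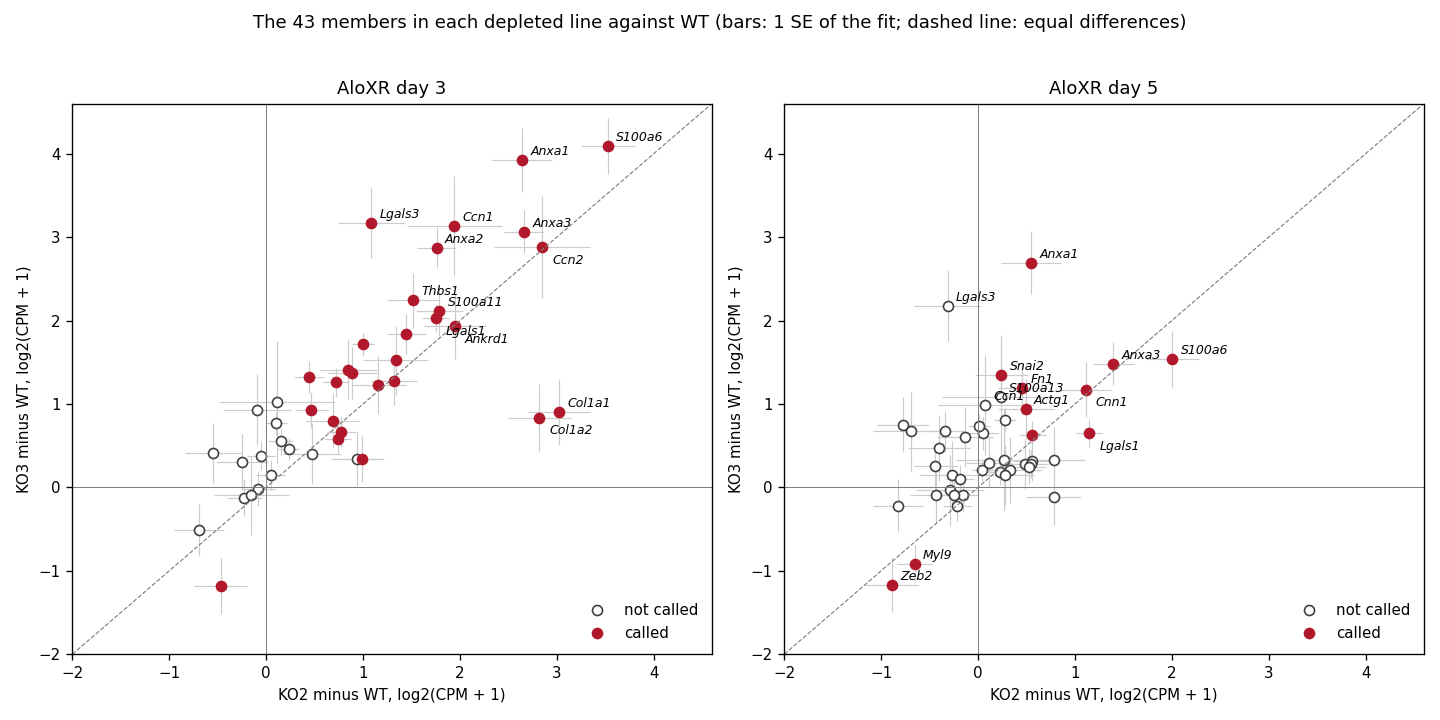
Difference from WT in log2(CPM + 1) of KO2 (horizontal axis) and KO3 (vertical axis) for the 43 members at day 3 (left) and day 5 (right), with bars of 1 SE of the fit, filled points where the mean of both lines was called, and a dashed line of equal differences. Both lines share the same WT libraries. At day 3 most called members lie up and to the right, with Col1a1 and Col1a2 well under the dashed line, and at day 5 the counts called higher were 5 in KO2 and 14 in KO3.

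Both depleted lines were also set against WT one at a time, sharing the WT libraries. At day 3, 25 members were called higher in KO2 (background 7.31%) and 23 in KO3 (12.7%), of which 20 were in both. The counts were 18 in KO2 (6.75%) and 20 in KO3 (8.50%) with 15 in both at day 1. In 2iL they were 8 in KO2 (9.90%) and 12 in KO3 (6.12%) with 6 in both, and at day 5 they were 5 in KO2 (6.27%) and 14 in KO3 (12.8%) with 4 in both. Members called lower were 2 in KO2 (7.94%) and 2 in KO3 (7.10%) in 2iL, 1 in KO2 (6.72%) and 1 in KO3 (6.93%) at day 1, 1 in KO2 (6.98%) and 1 in KO3 (6.24%) at day 3, and 4 in KO2 (10.6%) and 2 in KO3 (12.6%) at day 5. No member was called higher in one line and lower in the other at the same time.

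Set directly against KO2, KO3 had 6 members higher (2.50%) and 3 lower (4.74%) in 2iL, 8 higher (8.19%) and 4 lower (6.79%) at day 1, 6 higher (5.58%) and 2 lower (2.11%) at day 3, and 8 higher (9.02%) and 0 lower (5.06%) at day 5. Quantile normalization split all genes into 580 higher and 679 lower in 2iL (424 and 804 in the main values), 705 and 559 at day 3 (946 and 358) and 1204 and 1143 at day 5 (1531 and 858), with 7 members higher and 3 lower, 6 and 2, and 8 and 1. Anxa2 and Anxa4 were called higher in KO3 at all 4 times, but leaving out 1 library ended these calls in all cases but that of Anxa4 at day 1. That of Anxa2 ended in 2iL (adjusted p = 0.0743) and at day 3 (0.0707) without the second KO3 library, at day 1 without the third (0.583 in log2) or the fourth (adjusted p = 0.0526) KO2 library, and at day 5 without the first KO3 library (0.0501). That of Anxa4 ended in 2iL without the second or the third KO2 or the second KO3 library (0.0601 to 0.107), at day 3 without the first KO3 library (0.0562) and at day 5 without the first KO2 (0.57 in log2) or either KO3 library (adjusted p = 0.0881 and 0.224). With only the libraries compared, 1 member was called in 2iL, and Anxa2 (0.135), Anxa4 (0.101) and Tpm4 (0.0995) were not. Also called at all 4 times was Tpm4, a tropomyosin of non-muscle cells, at 49.2, 59.5, 57.1 and 54.2 CPM in KO2 and 94.2, 96.02, 122 and 112 CPM in KO3 at day 1, on either side of WT at 73.7 to 85.3 CPM. That difference was 0.93 ± 0.12 (adjusted p = 4.31e-08), and the call at day 3 ended without the second KO3 library (0.0648). Genes within 5 Mb of Tpm4 had a median KO3 minus KO2 difference of 0.39 at day 1, and those near Anxa4 one of 0.29, and less the median of neighbours neither was called at any of the 4 times (0.29 to 0.54 for Tpm4 and 0.32 to 0.54 for Anxa4). The members lower in KO3 included Acta2 in 2iL (-1.37 ± 0.26) and day 1 (-0.73 ± 0.22) and Col1a1 (-2.12 ± 0.40) and Col1a2 (-1.98 ± 0.40) at day 3. Lgals3 was higher in KO3 at days 3 (2.08 ± 0.42) and 5 (2.49 ± 0.42). Leaving out 1 library moved the count at day 3 to between 5 and 10 and that at day 5 to between 4 and 10, with the lowest values without the second KO3 library of day 3 and without the first KO3 library of day 5.

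The members also moved with time in WT. Of the contractile genes, Acta2, Tagln, Cnn1, Cnn2, Tpm1, Tpm2, Tpm4 and Myl9 were higher at all 3 AloXR times, while Tagln2 (-1.21 ± 0.15), Cnn3 (-1.13 ± 0.16), Cald1 (-1.54 ± 0.13) and Actn1 (-1.30 ± 0.15) were lower at day 1. The call of Tagln in WT at day 1 (0.67 ± 0.26) ended without the second or the third WT 2iL library or the third or the fourth WT library of day 1 (adjusted p = 0.0601 to 0.141). The members Fn1, Zeb1, S100a13, Snai1, Anxa4 and Lgals3 were lower at all 3 times, although Snai1 at days 1 and 3 and Lgals3 at day 5 lost the call without single libraries. Against 2iL, 12 members were higher (17.8%) and 16 lower (18.7%) in WT at day 1, 16 higher (21%) and 15 lower (20.6%) at day 3, and 25 higher (22.7%) and 6 lower (16.6%) at day 5. As shares of 43, these counts lay above the background in both directions at days 1 and 3, and at day 5 in the higher direction. In the depleted lines, 14 were higher (14.9%) and 9 lower (17.4%) at day 1, 24 higher (19.9%) and 5 lower (18.4%) at day 3, and 24 higher (20.8%) and 6 lower (18.5%) at day 5.

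Acta2, Flna, Vcl, Tagln, Cnn1, Cnn2, Tpm1, Tpm2, Tpm4, Myl9 and Thbs1 were called higher than in 2iL at every AloXR time, both in WT and in the depleted lines. Myl9, with a CArG box in its window, went from 0, 0.26 and 0.21 CPM in WT 2iL to 14.7, 14.6, 11.1 and 17.3 CPM at day 1 and 33.7, 38.6, 30.6 and 28.8 CPM at day 3 (4.87 ± 0.20, adjusted p = 3.3e-25). KO2 and KO3 lay at 0.29 to 1 CPM in 2iL and 22.6 to 31.6 CPM at day 3, so this rise was present in all 3 lines. Acta2 rose in WT from 0.21 to 0.52 CPM in 2iL to 55.6, 85.3, 36.5 and 29.5 CPM at day 3 (5.21 ± 0.24, adjusted p = 3.39e-23). Tpm2, a tropomyosin of muscle and fibroblasts, rose from 14.3, 7.29 and 3.86 CPM in WT 2iL to 80.1, 72.1, 88.4 and 84.9 CPM at day 5 (3.27 ± 0.29, adjusted p = 1.78e-11), and the depleted lines reached 54.8 to 81.3 CPM.

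Among the members that fell, Fn1 stood at 671, 579 and 224 CPM in WT 2iL and 22.5, 20.3, 27.99 and 25.9 CPM at day 3 (-4.15 ± 0.27, adjusted p = 1.31e-14). The fall was smaller in the depleted lines (-2.89 ± 0.21). Zeb1, an EMT repressor, fell from 15.2, 18.7 and 19.3 CPM in WT 2iL to 4.03, 2.62, 2.06 and 2.34 CPM at day 1 and 0.61, 0.22, 1.19 and 0 CPM at day 3 (-3.70 ± 0.32, adjusted p = 9.69e-14), and in the depleted lines it lay at 8.61 to 24.8 CPM and 0.58 to 1.67 CPM at the same times. S100a13 (-3.99 ± 0.65), Snai1 (-0.95 ± 0.31) and Anxa4 (-1.20 ± 0.17) were also lower in WT at day 1. Zeb2 went the other way, from 0 to 0.46 CPM in WT 2iL to 4.87, 5.02, 2.13 and 3.8 CPM at day 3 (1.91 ± 0.29).

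**Figure D4:**
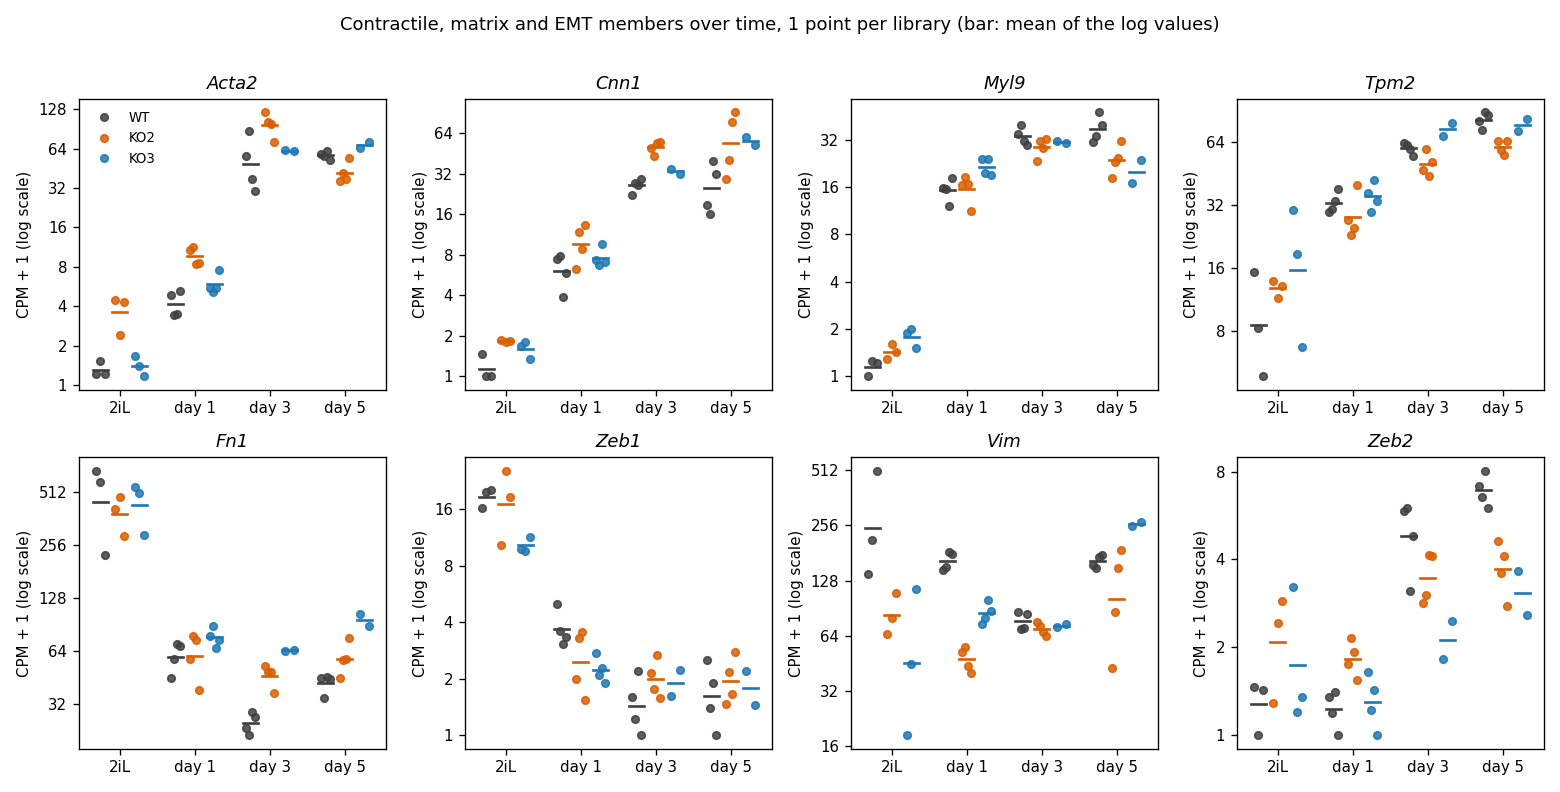
CPM + 1 on a log scale (vertical axis) in 2iL and after 1, 3 and 5 days of AloXR (horizontal axis) for 8 further members, 1 point per library, with WT in grey, KO2 in orange, KO3 in blue and bars at the mean of the log values. Acta2, Cnn1, Myl9 and Tpm2 climb in all 3 lines, Fn1 and Zeb1 fall in all 3, Vim is lower in the depleted lines in 2iL and at day 1, and Zeb2 is lower in them at day 5.

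The change from 2iL itself differed between the depleted lines and WT for 8 members at day 1, all more positive in the depleted lines (background 4.79% higher, 4.37% lower). These were S100a10, Anxa1, Anxa2, Anxa5, Tagln, Cald1, Ankrd1 and Thbs1, and the count was 4 under edgeR, 4 without the first and 5 without the fourth WT library of day 1, and 5 without the second WT library of 2iL. The calls that single libraries ended were those of S100a10 (adjusted p up to 0.167), Anxa5 (0.171), Ankrd1 (0.118) and Thbs1 (0.0766). Tagln, at 1.39 ± 0.32, was near 0 in edgeR (0.10, adjusted p = 0.978) and turned sign in DESeq2 (-0.10, adjusted p = 0.979). At day 3, 15 were more positive (8.41%) and 1 more negative (6.37%). The more positive ones were S100a6, S100a10, S100a11, Anxa1, Anxa2, Anxa5, Lgals1, Lgals3, Tagln2, Cald1, Ankrd1, Col1a1, Fn1, Thbs1 and Vim, led by Anxa1 (3.43 ± 0.42, adjusted p = 4.03e-08), and Zeb2 was the negative one (-1.40 ± 0.37). Of these, Vim stood lower in the depleted lines in 2iL and overlapped WT at day 3. Anxa3, Tpm1, Ccn2, Col1a2 and Mmp2, which were higher at day 3, were already higher in 2iL, and their change from 2iL was not called different.

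The call of Fn1 ended without the first (adjusted p = 0.0715) or second (0.0517) WT library of 2iL, and that of Vim without the third (0.0649).

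At day 5 the change from 2iL was more positive in the depleted lines for 3 members (7.53%), Tagln2, Fn1 and Vim. It was more negative for 5 members (10.4%), Anxa3, Tpm1, Myl9, Mmp2 and Zeb2. As shares of the listed members, both counts were near those of all genes, so the members did not stand out here. The split of the members was 0 and 4 with only the libraries compared, 6 and 6 under DESeq2, and 1 and 6 without the first WT 2iL library. The call of Tagln2 ended without the first WT (adjusted p = 0.0504) or the third KO3 2iL library (0.576 in log2), that of Mmp2 without the third WT 2iL library (adjusted p = 0.0809), and that of Fn1 without any of 14 libraries (0.0542 to 0.206). DESeq2 split all genes for this change into 1331 more positive and 1179 more negative (1278 and 1764 in the main values). A comparison added after the values were seen asked directly whether the step from day 3 to day 5 differed between the lines. This step was more negative in the depleted lines for 16 members, against 4.44% of all genes, and more positive for 0, against 1.58%. Quantile normalization split the background for this step into 422 more positive and 539 more negative genes, where the main values gave 268 and 753, with 13 members more negative and 0 more positive. The 16 were S100a6 (-2.04 ± 0.36), S100a10, S100a11, Anxa1, Anxa2 (-2.15 ± 0.27, adjusted p = 6.47e-07), Anxa3, Anxa5, Lgals1, Tagln, Tpm1, Cald1, Ccn2 (-2.57 ± 0.66), Ankrd1, Col1a1, Col1a2 and Thbs1. With KO3 alone, which has 2 libraries at each of these times, 8 were called. Single libraries ended the calls of Anxa5, Tagln, Col1a1 and Col1a2 (adjusted p = 0.0505 to 0.0927), with counts of 12 to 17.

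The day 3 levels of the depleted lines were set beside the day 5 levels of WT. Of the 27 members called higher at day 3, 26 (96.3%) had a higher WT mean at day 5 than at day 3, against 68.0% of the 1830 genes called higher at day 3. The KO2 mean of day 3 was at or above the WT mean of day 5 for 21 of the 27 (77.8%, against 80.7% of those genes), and the KO3 mean for 22 (81.5%, against 91.6%), so the last 2 shares lay below the background. Anxa2 gives an example, at 31.1 to 62.1 CPM in KO2 at day 3 and 49.1 to 58.9 CPM in WT at day 5, and S100a10 another, at 134 to 188 and 120.5 to 166 CPM. Tpm1 was an exception, with 896 to 1175 CPM in the depleted lines at day 3 and 1211 to 1416 CPM in WT at day 5. The choice of genes by their day 3 difference bears on all of these counts, which describe means that share the WT libraries of the comparisons above and were not tested.

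In all, 4 lists of related genes were followed in the same comparisons. Of the other actin, myosin and adhesion genes, 13 of 27 were higher (10.8% of all genes) and 0 lower (6.49%) at day 3, among them the LIM proteins Fhl2 (1.501 ± 0.24, adjusted p = 4.92e-06) and Csrp1 (0.73 ± 0.12). Counts of higher and lower genes in this list were 4 (8.11%) and 2 (7.60%) in 2iL, 6 (6.31%) and 1 (5.50%) at day 1, and 3 (8.89%) and 0 (11.7%) at day 5. As a share of 27, the higher count at day 5 was near that of all genes. Beta-actin, Actb, was not called at any time (0.39 ± 0.08 at day 3). Among other S100 genes, annexins, galectins and AHNAK proteins, 5 of 13 were higher (10.8% of all genes) and 0 lower (6.49%) at day 3. Ahnak, a giant scaffold that binds the S100A10 and annexin A2 complex, differed by 2.95 ± 0.14 (adjusted p = 9.82e-21), at 8.93, 7.2, 8.54 and 7.24 CPM in WT, 51.4, 69.6, 41.1 and 48.9 CPM in KO2 and 89.04 and 90.3 CPM in KO3, without overlap. Ahnak2 (2.60 ± 0.32), Anxa8 (1.31 ± 0.26), Lgals9 (1.61 ± 0.25) and Lgals4 were the others.

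Regulators of these genes were looked at last. The gene of SRF itself, Srf, was not called (1.00 ± 0.44, adjusted p = 0.0933). In the Hippo, YAP and TEAD list (20 genes), 6 were higher (10.8% of all genes) and 1 (Ajuba) lower (6.49%) at day 3, and 2 higher (8.89%) and 6 lower (11.7%) at day 5. As shares of 20, the 1 lower at day 3 and the 2 higher at day 5 were near those of all genes. The TEAD factors Tead1 (1.09 ± 0.14) and Tead4 (1.30 ± 0.25) and the TEAD cofactor Vgll4 (1.16 ± 0.17) were called higher at day 3. Tead4 rested mainly on KO3, at 6.17 and 4.38 CPM. KO2, at 0.19 to 2.78 CPM, overlapped WT at 0.18 to 0.95 CPM. In 2iL Tead4 lay lower in the depleted lines, at 11.97 to 19.63 CPM against 22.74 to 25.77 CPM in WT. Yap1 was not called (-0.01 ± 0.10, adjusted p = 0.952), and transcripts of its relative TAZ, Wwtr1, were lower at day 5 (-0.76 ± 0.13, adjusted p = 9.65e-06). Of 24 other mesenchymal and EMT genes, 8 were higher (10.8% of all genes) and 1 (Cdh11) lower (6.49%) at day 3. Among the higher ones were the matrix proteins Tgfbi (1.25 ± 0.29, adjusted p = 0.00103) and Sparc (0.89 ± 0.11). Tgfbi rested mainly on KO2 at low levels, at 0 to 0.47 CPM in WT, 2.06 to 6.56 CPM in KO2 and 0.41 and 1.22 CPM in KO3. In 2iL it lay lower in the depleted lines, at 0.2 to 1.17 CPM against 2.79 to 14.84 CPM in WT. Sparc is also a member of the endoderm marker list above.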

How the data were processed

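RNA of 41 libraries was measured by QuantSeq 3′ sequencing. Per the submitters' processing notes, STAR 2.7.6a, featureCounts 2.0.1 and build GRCm38 were used, and the authors deposited 1 table of CPM values (reads scaled to library totals) for 55487 Ensembl genes, of which 55141 had a symbol. Reads were recovered from the steps of the deposited CPM values (100% of 766190 values were whole within 0.01 reads), with a median depth of 4581394 reads.

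From these, log2(CPM + 1) was fitted in limma 3.58.1 (R 4.3.3) with a mean for every group, 29 residual degrees of freedom, and trend and robust empirical Bayes moderation. P-values were adjusted by Benjamini-Hochberg over the 16967 genes that reached 1 CPM in 3 or more libraries. A call needs an adjusted p under 0.05, at least 1.5-fold (0.585 in log2), and the same direction in both depleted lines where these were averaged with equal weight. Fold changes understate low genes because of the added 1 CPM. There were 18 comparisons, 1 of them added after the values were seen. All members were named, and of each further list up to 4 genes with the largest called difference from WT (some of these, and 1 list, are not reported here), plus Esrrb, Srf, Yap1, Wwtr1, Cdh1, Cdh2 and Actb. Lgals4, Ajuba and Cdh11 were named after their values were seen. The members and lists were chosen with earlier results of these data known. Alternatives were pseudocounts of 0.5 and 5 CPM, no filter, quantile normalization, edgeR 4.0.16 and DESeq2 1.42.0 on recovered reads, fits of the compared libraries only, each line alone, each library left out, the third 2iL libraries left out, and differences less the median of neighbours within 5 Mb with a mean of at least 10 CPM. The fits were tested on simulated data.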

Additional observations from a re-analysis of the deposited data

Results flagged for a closer look

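In groups of 4 libraries, 1 library stood far from the other 3 in 12 of 301 pairs of a member and a group (3.99%), where chance gives about 1 in 20. These values were 0.53 CPM (S100a4, WT day 1), 1.84 CPM (S100a4, KO2 day 1), 4.80 CPM (S100a4, WT day 5), 1.14 CPM (Anxa1, KO2 day 5), 11.5 CPM (Anxa5, KO3 day 1), 44.9 CPM (Anxa6, WT day 5), 116 CPM (Actn1, KO2 day 1), 35.4 CPM (Tagln, KO2 day 5), 646 CPM (Tpm1, KO2 day 1), 0 CPM (Ankrd1, WT day 3), 33.7 CPM (Fn1, WT day 5) and 6.78 CPM (Thbs1, KO2 day 1).

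The change from 2iL to day 1 differed between the depleted lines and WT, in log2(CPM + 1), by 0.81 for S100a10, 1.95 for Anxa1, 1.902 for Anxa2, 1.43 for Anxa5, 1.39 for Tagln, 1.80 for Cald1, 1.41 for Ankrd1 and 1.27 for Thbs1.

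To day 3, the change differed by 2.01 for S100a6, 1.25 for S100a10, 1.51 for S100a11, 3.43 for Anxa1, 1.95 for Anxa2, 1.96 for Anxa5, 0.85 for Lgals1, 2.24 for Lgals3, 1.07 for Tagln2, 1.39 for Cald1, 2.13 for Ankrd1, 2.01 for Col1a1, 1.26 for Fn1, 2.02 for Thbs1, 1.88 for Vim and -1.40 for Zeb2.

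To day 5, it differed by -0.96 for Anxa3, 0.68 for Tagln2, -0.91 for Tpm1, -1.26 for Myl9, -1.38 for Mmp2, 0.95 for Fn1, 1.99 for Vim and -1.60 for Zeb2.

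The step from day 3 to day 5, a comparison added after the values were seen, differed by -2.04 for S100a6, -1.21 for S100a10, -1.57 for S100a11, -1.66 for Anxa1, -2.15 for Anxa2, -1.43 for Anxa3, -1.49 for Anxa5, -0.99 for Lgals1, -1.10 for Tagln, -0.94 for Tpm1, -0.81 for Cald1, -2.57 for Ccn2, -1.91 for Ankrd1, -1.41 for Col1a1, -1.56 for Col1a2 and -1.89 for Thbs1.

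KO3 and KO2 differed directly for 9 members in 2iL, 12 at day 1, 8 at day 3 and 8 at day 5.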

How the results depend on the processing

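Counts of called members stayed within 1.5 times their main value except as follows. KO against WT at day 5 gave 7 members with a pseudocount of 5 CPM (11 with the settings of the report). The difference in change to day 1 gave 4 under edgeR and 4 to 10 when 1 library was left out (8), with 5 without the second WT 2iL library, 4 without the first WT library of day 1 and 5 without the fourth. The difference in change to day 5 gave 4 when only the libraries compared were fitted (8). The step from day 3 to day 5 gave 8 with KO3 alone (16). KO3 against KO2 in 2iL gave 1 when only the libraries compared were fitted (9). At day 3 it gave 5 less the median of neighbours, and 5 to 10 when 1 library was left out (8), and at day 5 it gave 4 to 10 when 1 library was left out (8). For the depleted lines against WT, calls beside those named in the report ended in 2iL for Acta2 without the first KO3 library (adjusted p = 0.0182, no longer the same direction in both lines), Tagln and Ccn2 without the second WT library (0.0559 and 0.0544) and Tpm1 without the third WT (0.48 in log2) or first KO3 library (0.57). They ended at day 5 for Tagln2 without the first or second WT, first KO2 or first KO3 library (0.53 to 0.58 in log2). The one called difference that changed sign was the change of Tagln to day 1, at -0.10 in DESeq2 (adjusted p = 0.979) against 1.39 with the settings of the report, where WT 2iL libraries held 0 to 0.23 CPM, and the cause was not tested. Against 2iL, leaving out 1 library ended the WT calls of Tagln, Ccn2, Mmp2, Thbs1 and Snai1 at day 1, Actg1, Col1a2, Mmp2 and Snai1 at day 3, and Lgals3 and Actg1 at day 5. In the depleted lines it ended those of S100a11 at day 1, Anxa5, Ccn2 and Mmp2 at day 3, and Lgals1, Actn1, Col3a1, Vim and Snai1 at day 5. Without the third 2iL library of each line, which stood apart alike in the 3 lines for S100a13, Vim and Fn1, the calls were 13 for the depleted lines against WT in 2iL (12), 12 for KO3 against KO2 in 2iL (9) and 11 for the change to day 5 (8). Over all genes, a pseudocount of 5 CPM reduced the calls for the depleted lines against WT from 2666 to 1396 in 2iL (571 higher and 825 lower), 2005 to 848 at day 1, 2931 to 1338 at day 3 and 3491 to 1731 at day 5, and those of KO3 against KO2 from 1228 to 739 in 2iL, 2542 to 1231 at day 1, 1304 to 864 at day 3 and 2389 to 1463 at day 5. Against 2iL it reduced them from 6180 to 4016 in WT at day 1, and in the depleted lines from 5479 to 3080 at day 1, 6497 to 3804 at day 3 and 6672 to 3994 at day 5. Fits of only the libraries compared gave 1385 genes for the depleted lines against WT in 2iL and 118 for KO3 against KO2 in 2iL. KO2 alone gave 553 for the step from day 3 to day 5 (1021), and less the median of neighbours KO3 against KO2 at day 3 gave 786. Depth limits members near 1 CPM (S100a4, Actg1, Ankrd1, Col3a1, Snai2, Zeb1 and Zeb2). No paired analysis was possible because the labels give libraries no replicate numbers, and numbers given in accession order are not used to pair samples.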
